A study of Mus musculus with 12 samples.

Results

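Neb encodes nebulin, a giant protein of the skeletal muscle thin filament. The Neb gene (ENSMUSG00000026950) lies on the minus strand at chr2:52136647-52378474 (GRCm38). Its longest coding transcript, Neb-202, has 157 exons and 22489 nt, of which 21456 nt are coding sequence (CDS), 419 nt 5′ UTR and 614 nt 3′ UTR. Peaks of AGO2 chimeric eCLIP were taken as Neb peaks when they overlapped the gene by at least 1 nt on its strand, with no threshold on their fold or p-value. They numbered 1670 of the 713343 peaks listed for the 4 total immunoprecipitated libraries, and 3340 of 1426686 over all 8 deposited lists. The 4 lists that compare the genotypes directly hold the same Neb peaks at the same coordinates as the library lists.

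The libraries came from tibialis anterior muscle, a fast muscle of the lower hind limb, of 6-month-old male mice. WT mice were compared with mir-486 KO mice, which carry a CRISPR deletion of the hairpin of this muscle-enriched microRNA. WT animals are labelled C57BL/6 and the mir-486 KO animals FVB N/J, whereas the methods describe backcrossing to C57BL/6J, so genotype and labelled strain cannot be told apart. Each of 2 library sets held 1 WT and 1 mir-486 KO immunoprecipitated library, each with its own input, and nothing in the labels says whether the sets came from different mice. An exact permutation test (two-sided) of 2 against 2 libraries cannot go below p = 0.333, so genotypes were not tested and the values below are a description. In whole muscle, fewer cells of a type and less RNA per cell cannot be told apart.

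Nebulin runs along the actin filament from the Z-disc and is known for setting or stabilising thin filament length. Much of it consists of short actin-binding repeats that are grouped into larger repeating units, and variants of the human gene are a frequent cause of nemaline myopathy. AGO2 is the Argonaute protein that holds a mature microRNA and, with it, the target RNA. Pairing usually rests on the seed, bases 2 to 8 of the microRNA, and sites that lower expression are found mostly in 3′ UTRs. In eCLIP, RNA cross-linked to AGO2 is recovered and sequenced beside a size-matched input, and the fold over input describes how far a peak stands above the RNA that was in the sample.

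The sequences below are those of the Neb sites that stood highest over input in each library set and of the seed match in the 3′ UTR. They are written 5′ to 3′ on the minus strand of GRCm38, with capitals for the letters that pair with the seed. The mature microRNAs, from RefSeq, have their seed in capitals. miR-206 shares its seed with miR-1, both of which are muscle microRNAs, and miR-30a stands for its family.
mmu-miR-206-3p: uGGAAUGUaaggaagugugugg
intron 4, chr2:52329670-52329699: aaccttgaactACATTCCaactttgaatct
intron 118, chr2:52191026-52191055: tatccttcagtACATTCCaggccttgtgtg
intron 151, chr2:52150309-52150338: ctgtgctttttcCATTCCaaactgtactaa
mmu-miR-30a-5p: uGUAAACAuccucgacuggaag
3′ UTR, chr2:52136748-52136777: gccctttccctTGTTTACtatgtgttaatg
exon 14, chr2:52308761-52308790: aaactatacaaggaaaactatgaaaagacc
The sites in introns 4 and 118 hold the whole 7-letter word ACATTCC, followed by A in both. The intron 151 site holds the 6-letter word CATTCC, which pairs with bases 2 to 7, also followed by A. The exon 14 window, from the highest CDS peak of the WT library of set 2, has none of the 7-letter words searched. The 6-letter miR-133 word GACCAA begins in its last letters and runs past its end. The window is shown for its position in the run of high exons described further on.

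Among the listed peaks of the 8 skeletal muscle fibre markers, which hold between 422 and 811 peaks per library, every marker was represented in all 4 libraries. The defining B cell markers Cd79a, Cd79b and Ms4a1 had no listed peak in 3 of the libraries and were present in the WT library of set 2, while the fourth marker of the list, Ighm, had peaks in all 4. Markers of cells that lie between the fibres were also present. All 4 fibroblast markers and all 3 endothelial markers had peaks in each library (148 to 346 and 26 to 139 peaks), as did 3 or 4 of the 4 macrophage markers (15 to 95 peaks). Depth in reads is unknown from these lists. The set 1 libraries list fewer peaks (92451 in WT and 119859 in mir-486 KO) than those of set 2 (244814 and 256219). The WT library of set 1 stood apart for Neb, and results that rest on it are given for both sets.

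Neb was among the genes with the most peaks. The WT library of set 1 listed 283 Neb peaks, the mir-486 KO library of set 1 274, the WT library of set 2 561 and the mir-486 KO library of set 2 552. By number of peaks Neb stood 5th among 12838 genes in the WT library of set 1, 10th in the mir-486 KO library of set 1 and 5th in both libraries of set 2, with Ttn first each time. Neb peaks made up 0.306% of all listed peaks in WT and 0.229% in mir-486 KO of set 1, and 0.229% and 0.215% in set 2. The log2 ratio of this share, WT over mir-486 KO, was 0.42 in set 1 and 0.09 in set 2 (mean 0.26 ± 0.23, SD, n = 2 sets), so that the genotypes differed by about as much as the sets did.

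Most Neb peaks did not stand above their input in 3 of the 4 libraries. The median log2 fold over input was 0.92 in the WT library of set 1, −0.67 in the mir-486 KO library of set 1, −0.13 in the WT library of set 2 and −0.07 in the mir-486 KO library of set 2. Only the WT library of set 1 lay above 0, and 80.9% of its Neb peaks had a positive fold, against 15.7%, 41.0% and 45.7% in the other libraries in the same order. The medians of all listed peaks were 0.68, 0.38, 0.47 and 0.45, so the Neb median was higher than that of all peaks in the WT library of set 1 and lower in the other 3. By genotype the Neb median was 0.39 ± 0.74 in WT and −0.37 ± 0.42 in mir-486 KO (SD, n = 2 libraries each), and the ranges of the genotypes overlapped. A peak was counted as enriched when its log2 fold and its −log10 p, both the authors' own values, each reached 3. In the WT library of set 1, 8 Neb peaks passed, a share of 2.83% where 3.57% of all peaks did. The mir-486 KO library of set 1 had 1 such Neb peak (0.848% of all peaks), the WT library of set 2 had 1 (1.42% of all peaks) and the mir-486 KO library of set 2 had 2 (1.23% of all peaks). Neb peaks thus passed no more often than peaks in general in any library. With the log2 threshold lowered to 1 and the p threshold kept, the shares differed: 117 Neb peaks (41.3%) passed in the WT library of set 1, where 7.14% of all peaks did. In the other libraries 3 (1.09%), 45 (8.02%) and 55 (9.96%) passed, beside 1.99%, 5.37% and 4.72% of all peaks. The lists hold no read counts per peak. The median of all peaks in the mir-486 KO library of set 1, 0.384216, was also the exact median of Actc1, Capza1, Capzb and Nebl. The part that reads per peak have in comparisons of Neb with all peaks, here and below, was not tested.

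Neb peaks lay almost wholly in coding exons. CDS held 94.7% of them (95% Wilson interval 91.4 to 96.8%, for counting error only) in the WT library of set 1, 92.0% in the mir-486 KO library of set 1, 93.05% in the WT library of set 2 and 94.6% in the mir-486 KO library of set 2. Of all listed peaks, between 35.5% and 51.8% were in CDS. By genotype the CDS share of Neb peaks was 93.9% ± 1.17 in WT and 93.3% ± 1.83 in mir-486 KO (SD, n = 2 libraries), and the genotypes differed by less than the libraries of a genotype. The 3′ UTR held 4 peaks in each set 1 library and 6 in each set 2 library. Introns held 5, 13, 20 and 12 peaks.

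Peaks tiled the spliced transcript. Of the 157 exons, 148 held a peak in the WT library of set 1, 152 in the mir-486 KO library of set 1, 154 in the WT library of set 2 and 153 in the mir-486 KO library of set 2, and 148 held one in all 4. Listed peaks covered 84.1%, 89.96%, 96.2% and 95.9% of the exonic nucleotides of Neb-202 in these libraries. Exons 1, 123 and 147 had no peak in any library, and exon 146 had one only in set 2.

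The level over input was uneven along the transcript, and its shape recurred between libraries. Exon 14, a coding exon of 105 nt at chr2:52308686-52308790, had a median log2 fold over input of 2.80 in the WT library of set 1, 1.67 in the mir-486 KO library of set 1, 2.65 in the WT library of set 2 and 2.54 in the mir-486 KO library of set 2 (mean 2.42 ± 0.51, SD, n = 4 libraries). It had the highest mean of the 148 exons listed in all libraries, and stood 1st in every library but the WT library of set 1, where exons 129, 95, 130 and 93 stood above it. Exon 15 followed with a mean of 1.86 ± 0.21, and its 4 values lay between 1.60 and 2.07. Exon 24 had 2.77, 0.48, 2.19 and 1.98, exon 18 had 2.00, 0.84, 1.61 and 1.76, and exon 130 had 3.29, 0.53, 1.12 and 1.30 in the same order of libraries. Of these 5 highest exons, 4 lay between exons 13 and 24.

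**Figure D1:**
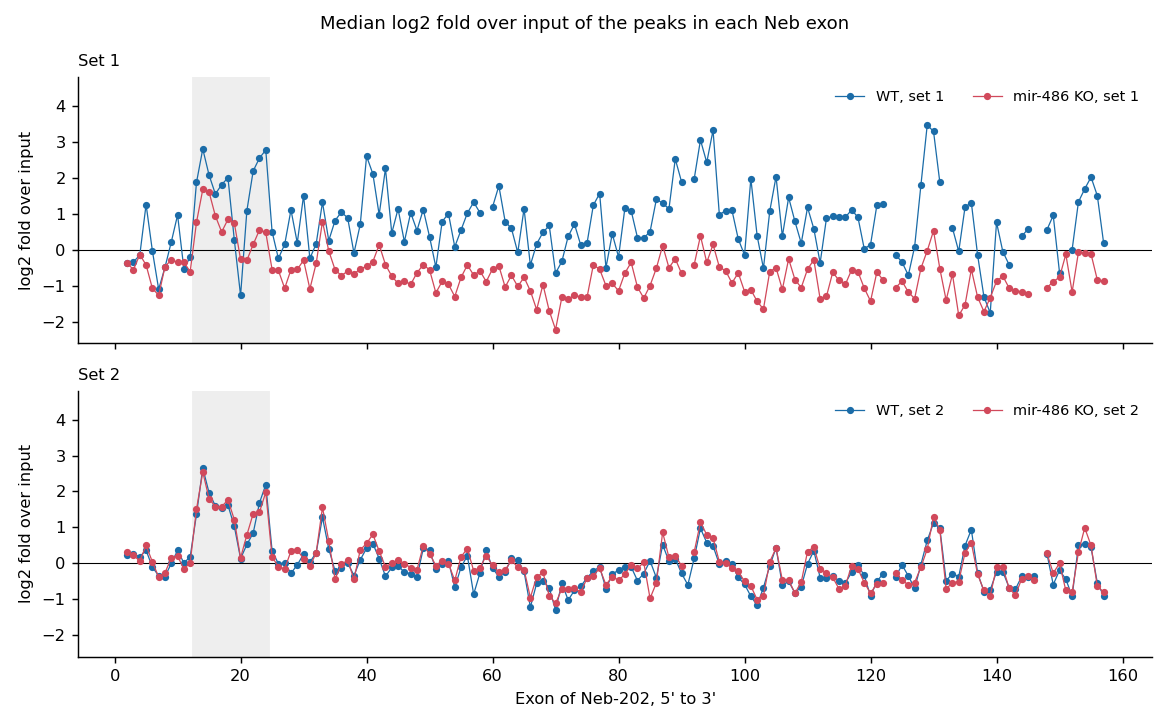
Median log2 fold over input (y axis) of the peaks in each exon of Neb-202 (x axis, exon number from the 5′ end), set 1 above and set 2 below, WT in blue and mir-486 KO in red. Gaps are exons with no listed peak, and the grey band marks exons 13 to 24, whose median was 1.93 in WT and 0.65 in mir-486 KO of set 1 and 1.57 and 1.54 in set 2.

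This run of 12 exons, chosen after its values were seen, holds 1275 exonic nt within chr2:52302442-52310645. Its median over exons was 1.93, 0.65, 1.57 and 1.54 in the 4 libraries, where the other exons had 0.69, −0.73, −0.22 and −0.13. Of the 16 exons with a median above 0 in all 4 libraries, 10 lay in the run and 6 outside it, namely exons 33, 42, 87, 93, 95 and 130. The highest of these outside the run in the mir-486 KO libraries was exon 33, with 1.32, 0.78, 1.28 and 1.56 in the 4 libraries. Within the run exon 20 was low, with −1.27, −0.27, 0.13 and 0.15. With the log2 threshold lowered to 1, 33 of the 45 peaks that passed in the WT library of set 2 lay in these exons, and 37 of 55 in the mir-486 KO library of set 2. In the mir-486 KO library of set 1, 2 of 3 did. In the WT library of set 1, 14 of 117 did, and 64 different exons held such a peak. The run holds 17 listed peaks in that library, 18 in the mir-486 KO library of set 1 and 44 in each library of set 2, so that most of its peaks passed in every library but the mir-486 KO library of set 1.

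The lowest exons were 70, 139, 138, 103 and 66. Exon 70 had medians of −0.65, −2.22, −1.30 and −1.12 in the 4 libraries, and exon 139 had −1.76, −1.34, −0.74 and −0.90. All values of these exons were below 0. Exons 66 and 70 are near-copies of other exons, since 82.9% of their 30-nt stretches recur elsewhere in the gene or in other transcripts, and the part of this in their low values was not tested. In all, 18 exons hold a repeated stretch of this length and in 7 it makes up over 50% of the exon, whereas exons 14, 15, 18, 24, 103, 130, 138 and 139 hold none.

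Across exons, the medians of the WT and mir-486 KO libraries of set 2 were ordered alike (Spearman's rho 0.92 over 153 exons). The mir-486 KO libraries of the sets had a rho of 0.76 over 152 exons, the WT and mir-486 KO libraries of set 1 had 0.62 over 148, and the WT libraries of the sets had 0.49 over 148. Exons of 1 transcript share their library and input and are not independent. Base composition moved little with the level: the rho of GC content, which ran from 32.4% to 57.5%, with the exon median was between −0.13 and 0.07 in the 4 libraries.

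Exons 31 to 86 repeat in length. They form 14 consecutive units of a 105-nt, a 108-nt, a 312-nt and a 204- or 207-nt exon, matching the repeating units of the protein. In the WT library of set 1 the median over the 312-nt exons was 1.14, and over the 105-nt, the 108-nt and the 204- or 207-nt exons it was 0.44, 0.51 and 0.24. All 14 of the 312-nt exons were above 0 there. In the mir-486 KO library of set 1 the medians in the order 105, 108, 312 and 204 or 207 nt were −0.95, −0.73, −0.68 and −0.78. They were −0.25, −0.13, −0.08 and −0.30 in the WT library of set 2, and −0.11, −0.04, −0.15 and −0.31 in the mir-486 KO library of set 2. The 4 kinds of exon overlapped widely in each of these 3 libraries.

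**Figure D2:**
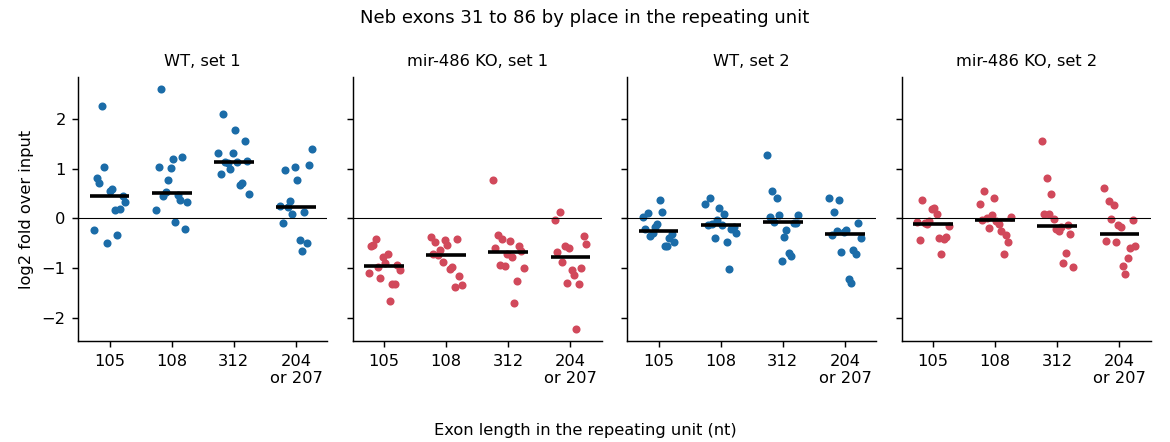
Median log2 fold over input (y axis) of each of the 56 Neb exons from 31 to 86, grouped by the length of the exon in its repeating unit (x axis, nt), in the 4 libraries. Points are exons in order of the unit, bars are medians over 14 exons (13 for the 105-nt exons of the WT library of set 1), and the 312-nt exons of the WT library of set 1, with a median of 1.14, have the highest median.

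The enriched peaks in CDS were all in the WT library of set 1. After the intron 4 site, its highest peaks were at chr2:52176787-52176788 in exon 129, with a log2 fold of 3.87 over a peak only 2 nt long, and at chr2:52208276-52208330 in exon 95, with 3.56. The remaining ones lay in exons 93, 95, 129 and 130, with log2 folds from 3.07 to 3.55. In the other libraries these exons were lower, but above the median over all exons (−0.66 in mir-486 KO of set 1, −0.13 and −0.11 in WT and mir-486 KO of set 2). The exon 95 median was 3.32 in that library, 0.14 in the mir-486 KO library of set 1, 0.48 in the WT library of set 2 and 0.70 in the mir-486 KO library of set 2. The exon 129 median was 3.47, −0.03, 0.64 and 0.40, and that of exon 93 was 3.05, 0.38, 0.97 and 1.14.

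No Neb peak passed both thresholds in any direct list of one genotype over the other. The share of all peaks that passed was 0.469% (WT over KO) and 0.179% (KO over WT) in set 1, and 0.0192% and 0.0144% in set 2. At a log2 fold of at least 1, 73 of 283 Neb peaks (25.8%) passed for WT over KO in set 1, where 4.85% of all peaks did, and they lay in 41 exons apart from 1 intronic peak. For KO over WT in set 1 there were 5 (0.755% of all peaks), for WT over KO in set 2 there were 2 (0.403% of all peaks), and for KO over WT in set 2 there were none (0.144% of all peaks). The median log2 WT over KO of Neb peaks was 0.67 in set 1 (95% interval of the median over peaks 0.51 to 0.74) and 0.10 in set 2 (0.08 to 0.12). These intervals take peaks as independent, which neighbouring peaks of 1 pair of libraries are not, so they are too narrow. They do not cover the spread of animals. All listed peaks of the same lists had medians of 0.74 and 0.30, above the Neb values. Among CDS peaks alone the Neb median was 0.69 beside 0.82 for all genes in set 1, and 0.09 beside 0.05 in set 2. At the peaks of the WT library Neb was thus below the typical CDS peak in set 1 and close to it in set 2. At the peaks of the mir-486 KO library, the median log2 KO over WT of Neb was −0.62 in set 1 and −0.12 in set 2. All peaks there had 0.72 and 0.27. Among CDS peaks alone the gap was smaller, with −0.69 and −0.12 for Neb beside −0.16 and 0.04 for all genes. In these lists Neb leaned further to WT than the typical CDS peak in both sets. Each direct list is made of the peaks of its first-named library, and all its peaks had a median above 0 in either direction. The place of Neb among all genes thus depended on the list.

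Exon by exon the sets gave different patterns. Over the 148 exons listed in all libraries, the median over input was higher in WT than in mir-486 KO for 142 exons in set 1, with a median difference of 1.48 on the log2 scale, and for 61 in set 2, with a median difference of −0.07. The direct list of set 1, which leaves the inputs out, had a median over exons of 0.54, and that of set 2 had 0.09. The difference over input in set 1 was thus larger than the difference between the immunoprecipitated libraries themselves, and the part that the inputs have in it was not tested. The exons highest in WT over KO in set 1 were 95 (2.06), 90 (2.02), 129 (1.93), 40 (1.89) and 130 (1.70). In set 2 the same exons had −0.15, 0.06, −0.02, −0.18 and −0.13, that is, near 0. The WT over KO values of the sets had a weak inverse relation across exons (rho −0.35 over 148 exons). GC content had a rho of 0.29 with the WT over KO value in set 1 and of −0.30 in set 2, and its part in the pattern was not tested.

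**Figure D3:**
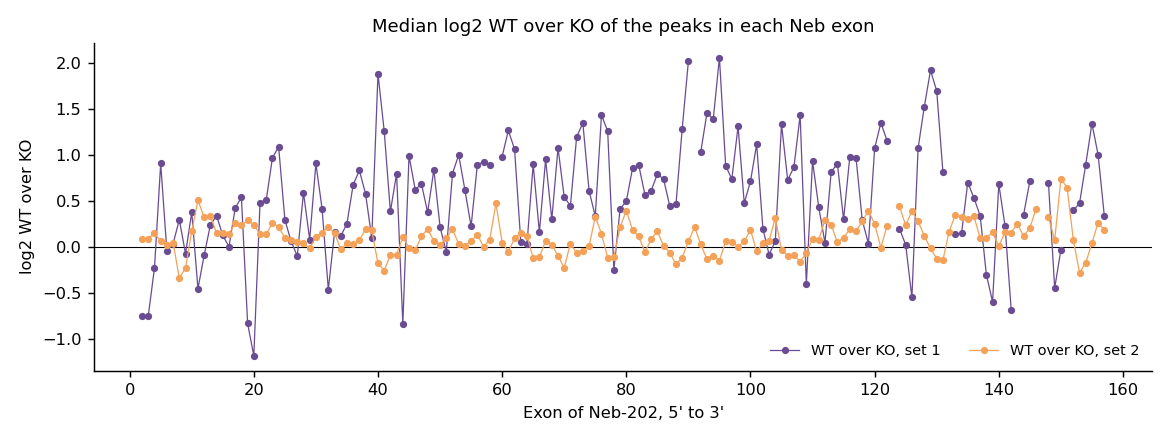
Median log2 WT over KO (y axis) of the WT peaks in each exon of Neb-202 (x axis, exon number from the 5′ end), set 1 in purple and set 2 in orange, from the direct lists. Set 1 reaches 2.06 at exon 95 while set 2 stays between −0.34 and 0.74.

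Introns held the Neb peaks that stood highest over input in every library. The intronic peaks of the 4 libraries merged into 29 sites. Of these, 13 lay within 10 nt of an annotated exon and 16 lay further in, 11 of them in intron 145 or later. Of the 16, 8 were listed in a single library and 1 in all 4.

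That site, in intron 151 at chr2:52150249-52150390, lay 218 nt from the nearest exon. Its log2 fold over input was 2.57 in the WT library of set 1, 1.47 in the mir-486 KO library of set 1, 4.37 in the WT library of set 2 and 4.18 in the mir-486 KO library of set 2, with −log10 p of 3.48, 2.11, 24.4 and 14.5. It was the highest Neb peak in both set 2 libraries. The direct lists put its WT peak at −0.17 in set 1 and 0.88 in set 2 on the log2 WT over KO scale, and its KO peak at 0.16 and −1.01 on the log2 KO over WT scale, so that the genotype difference was near 0 in set 1 and favoured WT in set 2.

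The site in intron 4, at chr2:52329598-52329723, was the highest Neb peak of both set 1 libraries. Its log2 fold over input was 4.46 in WT and 3.97 in mir-486 KO, with −log10 p of 6.32 and 4.38, and it had no listed peak in set 2. The site in intron 118, at chr2:52191020-52191054, was listed in the mir-486 KO libraries, with 1.80 in set 1 and 3.30 in set 2. The peak that passed the thresholds there was 3 nt long and lay beside the seed word, not over it. It had no listed peak in either WT library, and the direct lists gave log2 KO over WT values of 0.14 and −0.26 for its KO peaks, with −log10 p of 0.026 and 0. The missing WT peaks were thus not matched by a higher level in mir-486 KO.

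**Figure D4:**
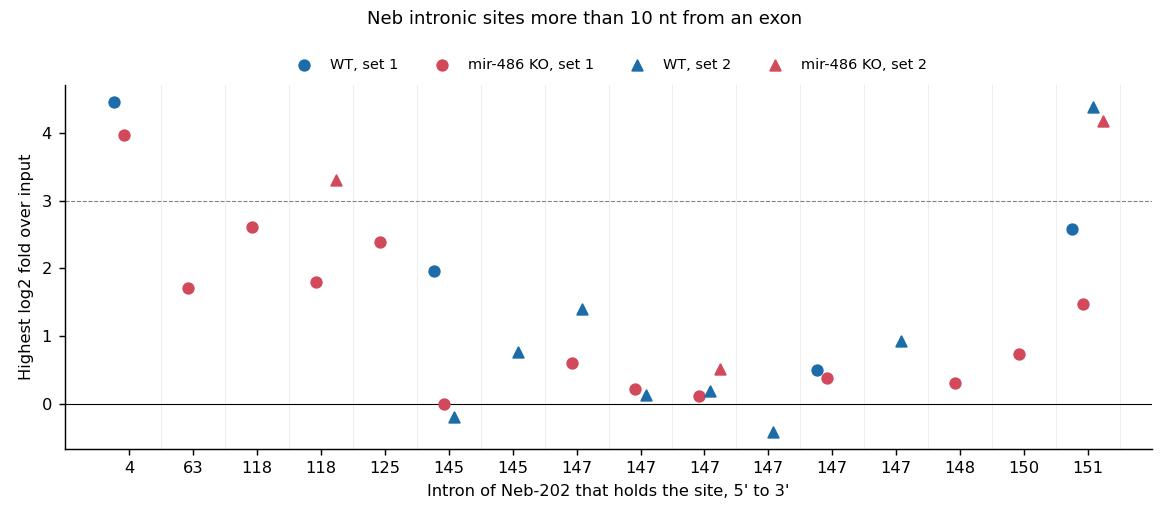
Highest log2 fold over input (y axis) of a listed peak at each of the 16 Neb intronic sites more than 10 nt from an exon (x axis, intron number from the 5′ end), circles for set 1 and triangles for set 2, WT in blue and mir-486 KO in red. A missing point means no listed peak, the dashed line is the log2 threshold of 3, and only the sites in introns 4, 118 and 151 pass it.

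The 3 sites past the thresholds are the ones whose sequences are shown above. The windows of introns 4 and 118 hold the 7-letter word for the miR-1 and miR-206 seed, and that of intron 151 only the 6-letter word. Words were searched on the transcribed strand for 5 families: ACATTCC for miR-1 and miR-206, GGACCAA for miR-133, CTACCTC for let-7, TGGTGCT for miR-29 and TGTTTAC for miR-30. Extended by 25 nt on each side, 3 of the 16 intronic sites held ACATTCC, namely those of introns 4, 63 and 118, and 5 held CATTCC. In intron 63 no peak covered a whole word. Among all listed intronic peaks, extended alike, ACATTCC was present in 12.8% and 4.60% (WT and mir-486 KO of set 1) and 5.47% and 4.65% (set 2). The 16 sites are merged over libraries, so these shares are not like theirs. Counted per library as single peaks, the word was in 1 of 5, 3 of 13, 0 of 20 and 1 of 12 Neb intronic peaks. Among enriched intronic peaks of all genes it was present in 17.6% of those of the WT library of set 1, 8.05% of those of the mir-486 KO library of set 1, 25.5% in WT of set 2 and 16.8% in mir-486 KO of set 2. The shorter CATTCC, extended alike, was present in 24.7%, 10.3%, 12.1% and 10.2% of all listed intronic peaks in the same order of libraries. Of the Neb intronic peaks, 2 of 5, 4 of 13, 2 of 20 and 2 of 12 held it. Of the enriched intronic peaks of all genes, 28.3%, 11.5%, 37.0% and 25.6% held it. A match is a description of the sequence and does not show which microRNA, if any, was bound. None of the other 4 families had a 7-letter match at these 16 sites.

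The families differed in the words they had in the spliced transcript. Neb-202 holds none of the 7-letter words of miR-1 and miR-206, miR-133 and let-7 in its 22489 nt. The longest coding transcripts of 21877 genes hold on average 1.58, 1.69 and 1.78 of them per the same length. These averages and those that follow count UTRs with CDS. Of Neb-202, 21456 nt are CDS, so they are not a like reference. Neb-202 holds 7 such words of miR-29, all in CDS, where the average per this length is 2.81, and 2 of miR-30, where it is 1.64. Of the miR-30 words 1 is in CDS and 1 in the 3′ UTR. Of the miR-29 words 5 lie in 312-nt exons of the repeating units, and exon 77 holds 2 of them. The medians of the 6 exons with a miR-29 word were between 0.90 and 1.80 in the WT library of set 1 and between −0.86 and −0.03 in the other 3 libraries. The transcript as a whole had the same shape, with medians over all exons of 0.78, −0.66, −0.13 and −0.11. The 312-nt exons had 1.14 in the WT library of set 1. No 7-letter word of any of the 5 families lies in exons 13 to 24, whereas exon 14 holds GACCAA, the 6-letter word of miR-133. The 6-letter words were not counted along the spliced transcript.

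In the 3′ UTR, no Neb peak was enriched in any library. The miR-30 word begins at position 495 of its 614 nt, and a peak covered it in all 4 libraries, with log2 folds over input of −1.43, −1.36, −1.10 and −1.41. These are all below 0, and the lowest of the Neb 3′ UTR peaks in each library. The word was present in 1 of 4 Neb 3′ UTR peaks in each set 1 library and in 1 of 6 in each set 2 library, beside 3.11%, 1.72%, 2.77% and 2.84% of all 3′ UTR peaks. The highest Neb 3′ UTR peak, at chr2:52137056-52137154 in the WT library of set 1, had a log2 fold of 0.57 with a −log10 p of 1.68. In the other libraries every 3′ UTR peak of Neb was below 0, with medians of −0.88, −0.50 and −0.64, where all 3′ UTR peaks had medians of 0.61, 0.60 and 0.56. Between genotypes the median of the Neb 3′ UTR peaks was 0.34 in set 1 and 0.49 in set 2 on the log2 WT over KO scale, with all 3′ UTR peaks at 0.54 and 0.30.

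Listed Neb peaks of one library mostly overlapped those of another, as peaks that cover most of the exonic sequence must at a minimum of 1 nt. Of the 283 Neb peaks of the WT library of set 1, 281 (99.3%) overlapped a Neb peak of the WT library of set 2, and 471 of the 561 (84.0%) did so in the other direction, beside 69.5% and 29.3% of all peaks. For the mir-486 KO libraries these shares were 96.0% and 92.0%, beside 54.1% and 28.3%. Between genotypes, every Neb peak of the WT library of set 1 overlapped one of the mir-486 KO library of set 1 and 93.4% did in reverse, beside 47.4% and 36.7% of all peaks. In set 2 the shares were 96.8% and 98.9%, beside 54.0% and 51.8%. A stricter rule asked that the overlap make up at least 50% of both peaks. Under it, 67.1% and 33.9% of Neb peaks recurred between the WT libraries and 74.8% and 37.1% between the mir-486 KO libraries. Of the intronic peaks, 3 of 5 in the WT library of set 1 and 8 of 20 in that of set 2 overlapped a Neb peak of the other WT library, and 2 of 13 and 9 of 12 did so for the mir-486 KO libraries of set 1 and set 2. Between genotypes these counts were 5 of 5 (WT) and 4 of 13 (mir-486 KO) in set 1, and 7 of 20 and 8 of 12 in set 2.

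Titin, encoded by Ttn, is another giant sarcomere protein and spans from Z-disc to M-band. Per kb of annotated exon, Neb had 10.5, 9.82, 20.4 and 20.3 exonic peaks in the 4 libraries, and Ttn had 5.68, 7.21, 12.04 and 12.49. Neb thus had more exonic peaks per kb of annotated exon than Ttn in each library, which is a count of peaks and not of nucleotides covered. The Ttn median log2 fold over input was 0.65, −0.64, 0.09 and 0.14. In both genes the WT library of set 1 had the highest median and the mir-486 KO library of set 1 the lowest. Of the Ttn peaks 6.33%, 0, 0.709% and 0.683% were enriched, beside 2.83%, 0.365%, 0.178% and 0.362% of the Neb peaks.

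**Figure D5:**
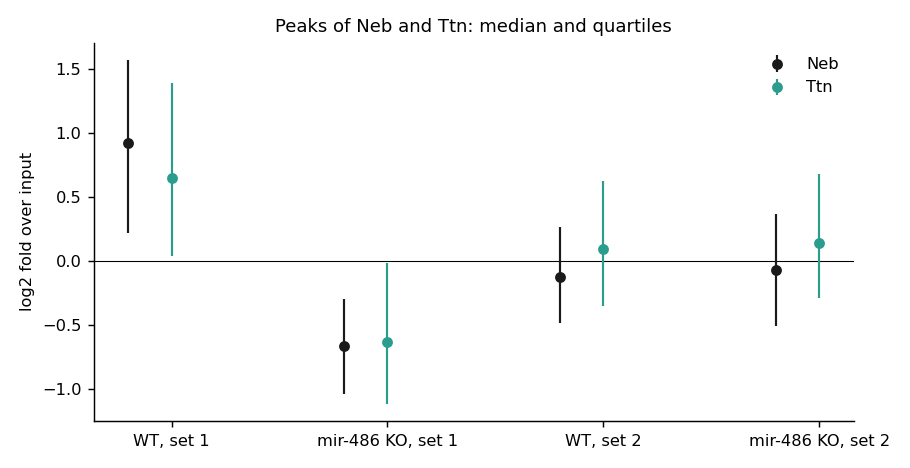
Median log2 fold over input (y axis) of all listed peaks of Neb and Ttn in each of the 4 libraries (x axis), with lines from the lower to the upper quartile over peaks. Neb goes from 0.92 in WT to −0.67 in mir-486 KO in set 1 and is at −0.13 and −0.07 in set 2.

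Among 808 genes with at least 20 peaks in each library, the 5 nearest to Neb by Euclidean distance over 6 medians (over input in 4 libraries, WT over KO in 2 sets) were Flnc (0.40), Ttn (0.41), Unc45b (0.43), Mybpc2 (0.48) and Strn3 (0.52). Flnc encodes filamin C, an actin cross-linker of the Z-disc, Unc45b a myosin chaperone, Mybpc2 the fast myosin-binding protein C and Strn3 a striatin. By its median over input Neb stood above 80.6% of these genes in the WT library of set 1 and above 3.09%, 12.995% and 14.9% in the others. On WT over KO, read at the WT peaks, it stood above 46.4% in set 1 and 33.8% in set 2.

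Of 33 genes of the thin filament and of nemaline myopathy, 32 had peaks in each WT library and 33 in each mir-486 KO library. An enriched peak was found in 19 of them in the WT library of set 1, in 3 in the mir-486 KO library of set 1, in 3 in the WT library of set 2 and in 5 in the mir-486 KO library of set 2. Over all genes with listed peaks, 14.8%, 5.13%, 12.3% and 11.6% had one in these libraries, and of the peaks of the 33 genes 6.05%, 0.648%, 0.408% and 0.479% were enriched, beside 3.57%, 0.848%, 1.42% and 1.23% of all peaks. The share of enriched peaks in the list was thus above that of all peaks in the WT library of set 1 and below it in the other 3. The median of the genes' medians was 0.87, 0.03, 0.26 and 0.29, and 14, 27, 23 and 21 of them stood above Neb. On the log2 WT over KO scale, read at the WT peaks, their median was 0.64 in set 1 and 0.19 in set 2, with 15 and 21 above Neb.
Acta1, the skeletal actin of the filament that nebulin lies along, had medians over input of 0.97, −1.11, −1.17 and −1.08. Klhl41, a Kelch protein that stabilises nebulin, had 1.31, −0.27, −0.11 and −0.47. Klhl40, its relative with a like role, had 2.68, 0.06, −0.42 and −0.38. Nrap, a nebulin-related protein of nascent myofibrils, had 0.59, −0.69, −0.36 and −0.15. Lasp1, a small LIM and SH3 protein with nebulin repeats, stood above 1 in each library, with 1.33, 1.19, 1.29 and 1.41 over 9, 18, 14 and 13 peaks. In the set 1 libraries none of its peaks reached a log2 fold of 1 with a −log10 p of 3. In Acta1, Klhl40, Klhl41 and Nrap, as in Neb, the WT library of set 1 had the highest median, while in Lasp1 the 4 libraries were close to each other. Other genes of the list went the other way. In Nebl, Tpm2 and Tpm3 the WT library of set 1 had the lowest median. Nebl had −0.70, 0.38, 1.47 and 0.82, over 2, 3, 13 and 6 peaks. Tpm2 had 0.34, 0.74, 1.09 and 0.42, and Tpm3 had 0.24, 0.51, 1.06 and 0.51.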

How the data were processed

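AGO2 chimeric eCLIP peaks of mouse tibialis anterior were analysed from 8 lists. According to the methods and the submitters' processing notes, the authors trimmed reads with cutadapt, removed duplicates with UMI-tools, aligned with STAR, called peaks with CLIPper in each library and compared reads per peak between 2 libraries, without pooling replicates. The authors deposited for each peak a log2 fold and the −log10 p of that fold. The −log10 p is 0 wherever the fold is below 0, so depletion has no p, and 400 is the highest value written. The miR-486-enriched libraries were not analysed here.

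Neb peaks, their exons and regions were taken from GENCODE M21, an earlier release than the one in the labels, at the peak midpoint with CDS before UTR, noncoding exon and intron. Folds were summarised as medians per library, and exons as medians over their peaks. Enriched peaks were those whose log2 fold and −log10 p both reached 3. Python 3.11.15, pandas 2.3.3, scipy 1.17.1 and bedtools 2.31.1 were used, and the overlap, region and word searches were tested on simulated data. Named items were the 3′ UTR peaks, the 3 highest enriched peaks per library, the 5 highest and 5 lowest exons listed in all libraries, Ttn, the 5 most alike genes and a list of 33 thin filament and nemaline myopathy genes. The gene and the lists were chosen with earlier results of these data known. Depth in reads is unknown, so that no counting interval was given for folds, and Wilson intervals cover counting error only. The sets share numbers but no stated animal. Seeds of miR-1 and miR-133 were read from miR-206 and miR-133b. The miR-486 seed was not used here, and 1 further comparison gene is not reported here. Alternatives covered the thresholds, the region rule, merging of adjoining peaks, the overlap and each set left out.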

Additional observations from a re-analysis of the deposited data

How the results depend on the processing

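Of 149 alternative values, 86 stayed close to the reported ones, 58 moved and 5 changed sign, and the cause was not tested. Values are in the order WT and mir-486 KO of set 1, then of set 2. Enriched Neb peaks (8, 1, 1 and 2) numbered 117, 3, 45 and 55 at a log2 threshold of 1. At a threshold of 4 they numbered 1 in WT and 0 in mir-486 KO of set 1 and 1 in mir-486 KO of set 2. They numbered 0 in mir-486 KO of set 1 at a −log10 p of 5, 5 in WT of set 1 with adjoining peaks merged, and 1 in mir-486 KO of set 2 among peaks of at least 10 nt. Leaving out 1 library, the WT mean of 4.5 ran from 1 to 8, so the WT library of set 1 decides it. In the direct lists the counts of 0 became 73 (WT over KO, set 1), 5 (KO over WT, set 1) and 2 (WT over KO, set 2) at a log2 threshold of 1, and 1 (KO over WT, set 1) at a −log10 p of 2. The share of listed peaks in Neb was 0.208%, 0.169%, 0.0814% and 0.0750% with adjoining peaks merged. By nucleotides covered it was 0.280% in mir-486 KO of set 1, 0.114% in WT of set 2 and 0.108% in mir-486 KO of set 2. With a −log10 p of at least 1 it was 1.13%, 0.301%, 0.424% and 0.503%, and the log2 ratio of shares was 0.83. Read at the 5′ end of the peak, CDS held 85.3% of Neb peaks in WT and 81.0% in mir-486 KO, the 3′ UTR 0.976% and 1.0003% and introns 11.6% and 16.5%. With only Neb-202 annotated, CDS held 89.9% and 89.9% and introns 7.37% and 7.55%. With a −log10 p of at least 1, a filter that removes every fold below 0, CDS held 92.3% and 87.4%, the 3′ UTR 0.282% and 0 and introns 3.96% and 9.43%. The median over input of exonic peaks in mir-486 KO was then 0.70 and not −0.40, and that of intronic peaks 2.03. Intronic peaks of mir-486 KO had −0.16 by the 5′ end and 1.30 as a mean. The exonic WT median of 0.39 ran from −0.13, without set 1, to 0.92. The median WT over KO was 0.90 and 0.29 with a −log10 p of at least 1, 0.074 in set 2 with peaks of at least 10 nt, and −0.077 and −0.20 after subtraction of the median of all listed peaks. At an overlap of 50% recurrence was 67.1% and 33.9% between WT libraries, 74.8% and 37.1% between mir-486 KO libraries, 76.7% and 79.2% between genotypes in set 1 and 73.4% and 74.6% in set 2. With peaks extended by 25 nt, 2 of the 6 Neb 3′ UTR peaks of mir-486 KO in set 2 held a seed word in place of 1. The limit of 10 nt on peaks, and the exonic medians without exons that hold repeated 30-nt stretches (0.39 in WT and −0.39 in mir-486 KO) or without exons 13 to 24 (0.34 and −0.46), were chosen after seeing the data. No paired analysis was possible because 1 pair of libraries per set allows no test, and the values within each set stand in the report. Peak lists without read counts limit what can be said of depth.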
